A study of Homo sapiens with 12 samples.

Results

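The RNAs described here belong to 48 human genes whose products carry a cell through mitosis and cytokinesis. They were listed by name with earlier results of these data known, so shares of calls among them are descriptive only. The 6 steps are mitotic entry, the kinetochore with its checkpoint and passenger complex, the spindle motors, spindle assembly and chromosomes, mitotic exit, and cytokinesis. Of the 48 genes, the kinesin KIF22 had no probe in the probe-to-gene table used here, and all of the other 47 had a probe that could be tested, out of 11273 tested genes in all. Levels were measured on 12 Illumina bead arrays, 4 per group. The first group was the human ovarian cancer line transfected with an siRNA against EZH2 (EZH2 siRNA cells). Its control was transfected with a scrambled siRNA (control siRNA cells), and the last group received no siRNA (untransfected cells). The sample names call the untransfected cells SKOV3ip and name no line for the siRNA groups, and the source labels read SKOV3. All groups were taken here to be of 1 line. No label gives the siRNA sequence, its dose, the time after transfection, or whether arrays of a group stand for separate cultures. Technical spread alone may therefore lie behind the p-values below, which rest on differences among arrays.

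Entry into mitosis is driven by cyclin B and its kinase CDK1, which CDC25 phosphatases switch on. Kinetochores then attach chromosomes to spindle microtubules, and the spindle checkpoint holds back the anaphase-promoting complex until attachment is complete. That complex marks cyclin B and securin for destruction, after which the chromosomes part and a ring of actin and anillin pinches the cell in 2. The RNAs of most of these genes are made mainly in G2 and mitosis, so their level in a bulk culture follows the share of dividing cells as well as the output of each cell. In these bulk samples, fewer cells in mitosis and less RNA per cell cannot be told apart.

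The promoters of many such genes hold a short element called the cell cycle genes homology region (CHR), with the core TTTGAA, near the start site. It is bound by the DREAM complex, which represses these genes in resting cells, and by B-MYB with the MuvB core and FOXM1, which activate them in G2. CCAAT boxes upstream bind the factor NF-Y. Of the 48 genes, 40 have promoters in the RefSeq table (GRCh38.p14; 300 bases, from 250 before to 50 after the start), as 51 windows; AURKA, FOXM1, BUB3, TTK, BIRC5, TPX2, UBE2C and RACGAP1 have none there. The windows of 5 genes are shown because they carry these elements, so they do not stand for the whole list. They include ANLN and PRC1, the 2 genes that passed the test between the siRNAs. The others are a cyclin (CCNB2), a spindle motor (KIF20A) and a spindle assembly factor (NUSAP1). Capitals mark TTTGAA, its variant TTTAAA and CCAAT, on either strand, so that TTCAAA and ATTGG are the minus-strand forms.
ANLN, chr7:36389612-36389911, plus strand: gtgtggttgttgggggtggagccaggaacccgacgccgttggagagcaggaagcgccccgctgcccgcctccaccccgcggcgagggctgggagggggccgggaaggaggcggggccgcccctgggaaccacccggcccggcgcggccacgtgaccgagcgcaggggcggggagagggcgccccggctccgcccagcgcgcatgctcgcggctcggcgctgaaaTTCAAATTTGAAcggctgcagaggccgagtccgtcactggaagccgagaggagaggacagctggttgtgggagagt
PRC1, chr15:90994486-90994785, minus strand: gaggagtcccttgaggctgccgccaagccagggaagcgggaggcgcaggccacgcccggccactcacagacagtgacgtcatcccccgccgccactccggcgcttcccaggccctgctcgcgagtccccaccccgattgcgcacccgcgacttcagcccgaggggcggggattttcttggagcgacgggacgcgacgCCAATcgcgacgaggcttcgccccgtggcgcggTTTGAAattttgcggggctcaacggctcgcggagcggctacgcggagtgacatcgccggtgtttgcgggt
CCNB2, chr15:59104896-59105195, plus strand: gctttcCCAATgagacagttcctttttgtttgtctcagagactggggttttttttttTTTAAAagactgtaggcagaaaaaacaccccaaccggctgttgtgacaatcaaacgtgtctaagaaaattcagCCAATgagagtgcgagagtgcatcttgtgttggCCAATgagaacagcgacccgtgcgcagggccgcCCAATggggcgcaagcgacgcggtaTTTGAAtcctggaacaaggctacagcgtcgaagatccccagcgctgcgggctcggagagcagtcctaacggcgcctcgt
KIF20A, chr5:138178862-138179161, plus strand: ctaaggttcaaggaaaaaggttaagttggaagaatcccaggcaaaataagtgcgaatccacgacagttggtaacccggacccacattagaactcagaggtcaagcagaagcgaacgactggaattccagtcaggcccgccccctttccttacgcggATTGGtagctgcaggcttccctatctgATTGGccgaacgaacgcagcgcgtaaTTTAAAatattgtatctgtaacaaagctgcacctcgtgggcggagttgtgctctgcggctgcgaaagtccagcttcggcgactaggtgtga
NUSAP1, chr15:41332631-41332930, plus strand: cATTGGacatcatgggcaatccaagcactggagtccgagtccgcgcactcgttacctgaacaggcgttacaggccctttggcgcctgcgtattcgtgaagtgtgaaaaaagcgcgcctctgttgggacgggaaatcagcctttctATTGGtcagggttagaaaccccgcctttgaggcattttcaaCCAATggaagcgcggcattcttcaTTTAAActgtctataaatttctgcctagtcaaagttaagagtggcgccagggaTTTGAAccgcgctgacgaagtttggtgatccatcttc

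In ANLN, which encodes the ring scaffold anillin, TTCAAA at base −26 ran straight into TTTGAA at base −20, counted back from the annotated start. PRC1, whose product bundles the microtubules of the spindle midzone, held TTTGAA at base −20 with a CCAAT box at −53. CCNB2, the gene of cyclin B2, held TTTGAA at −29 and CCAAT boxes at −120, −87 and −54, each 33 bases from the next, with another at −244. KIF20A, a kinesin needed for cytokinesis, held the variant TTTAAA at −41 and 2 minus-strand CCAAT boxes at −94 and −67. NUSAP1, a microtubule-bundling spindle protein, held TTTAAA at −40 and 3 CCAAT boxes at −249, −105 and −64, and TTTGAA only after the start, at base 14.

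Across the genes these letters were common. TTTGAA stood on either strand of the window in 28 of the 40 genes, and in 60.8% of their 51 promoters against 15.2% of all 35116 promoters in the table. Counting TTTAAA as well, 34 of 40 genes held a match, with 74.5% of their promoters against 24.0% of all. CCNA2, NEK2, BUB1, AURKB, KIF22 and TACC3 held neither form, and TACC3 had no CCAAT box either. At least 1 CCAAT box was found in 33 of 40 genes (74.5% of promoters, against 34.6% of all), and at least 2 in 20 of 40 (41.2%, against 10.8%). Both kinds together, a CHR match with at least 2 CCAAT boxes, stood in 18 of 40 genes and 37.3% of their promoters, against 2.73% of all. TTTGAA and TTTAAA matches cannot overlap each other, and each can share at most 1 base with a CCAAT box. The matches were also placed alike: 23 of the 51 promoters had a CHR match within the 50 bases before the start (45.1%, against 4.79% of all), and 27 had a CCAAT box in the 50 bases before those (52.9%, against 12.9%). A match describes these letters and is not evidence of binding in these cells.

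**Figure D1:**
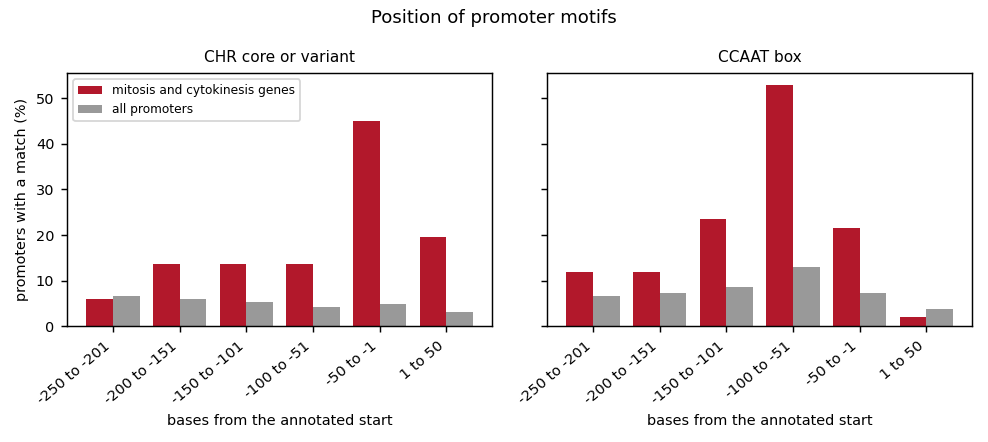
Share of promoters (%) with a match in each 50-base bin, by distance in bases from the annotated start, for the mitosis and cytokinesis genes (red, 51 promoters) and all promoters of the table (grey, 35116). CHR matches of the mitosis and cytokinesis genes peak at 45.1% in the bin just before the start, and CCAAT boxes at 52.9% in the bin before that.

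The arrays differed in brightness. Mean raw signal averaged 240 ± 50.2 intensity units in EZH2 siRNA cells, 327 ± 41.7 in control siRNA cells and 299 ± 106 in untransfected cells (SD, n = 4 each), and the number of arrays limits the precision. The 3 arrays under 250 units were EZH2 siRNA arrays 1 and 4 and untransfected array 4. All levels below are log2 values after background correction and quantile normalisation, and arrays within a group correlated at 0.98 to 0.992 over all probes. Of 10 markers of ovarian carcinoma and epithelium, 7 were above background on all 12 arrays, WT1 on 9, MUC16 on 6 and CDH1 (E-cadherin) on none. Of the endothelial markers, CDH5 and VWF were above background on no array, PECAM1 on 9, KDR on 5 and TEK on 1. Of the fibroblast markers, LUM and PDGFRB were on none, COL1A1 on 2, and COL1A2 and DCN on 1 each. Of the leukocyte markers with a probe, CD3E and CD14 were on none, PTPRC on 1 and CD68 on all 12. The part of cells carrying these markers in the results was not tested.

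EZH2, the histone H3 methyltransferase of Polycomb repressive complex 2 and the target of the siRNA, checks the labels. Its brightest probe read 6.51, 6.80, 6.95 and 6.45 in EZH2 siRNA cells, against 7.47, 7.67, 7.73 and 7.36 in control siRNA cells and 7.95, 7.77, 7.86 and 8.36 in untransfected cells. The 3 groups did not overlap. In EZH2 siRNA cells it was 1.84-fold below control siRNA cells (difference −0.88, SE 0.14, adjusted p = 0.00144 in limma), and control siRNA cells differed from untransfected cells by −0.43, which did not pass the test (adjusted p = 0.0895). Of the other EZH2 probes, ILMN_2364529 was lower both between the siRNAs (−0.67, adjusted p = 0.0185) and between control siRNA and untransfected cells (−0.62, adjusted p = 0.0201). ILMN_1652913 passed in neither comparison (−0.53, adjusted p = 0.0618, and −0.42, adjusted p = 0.13). In EZH2 siRNA cells, ILMN_2364529 was above background on 3 of 4 arrays and ILMN_1652913 on 2 of 4.

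**Figure D2:**
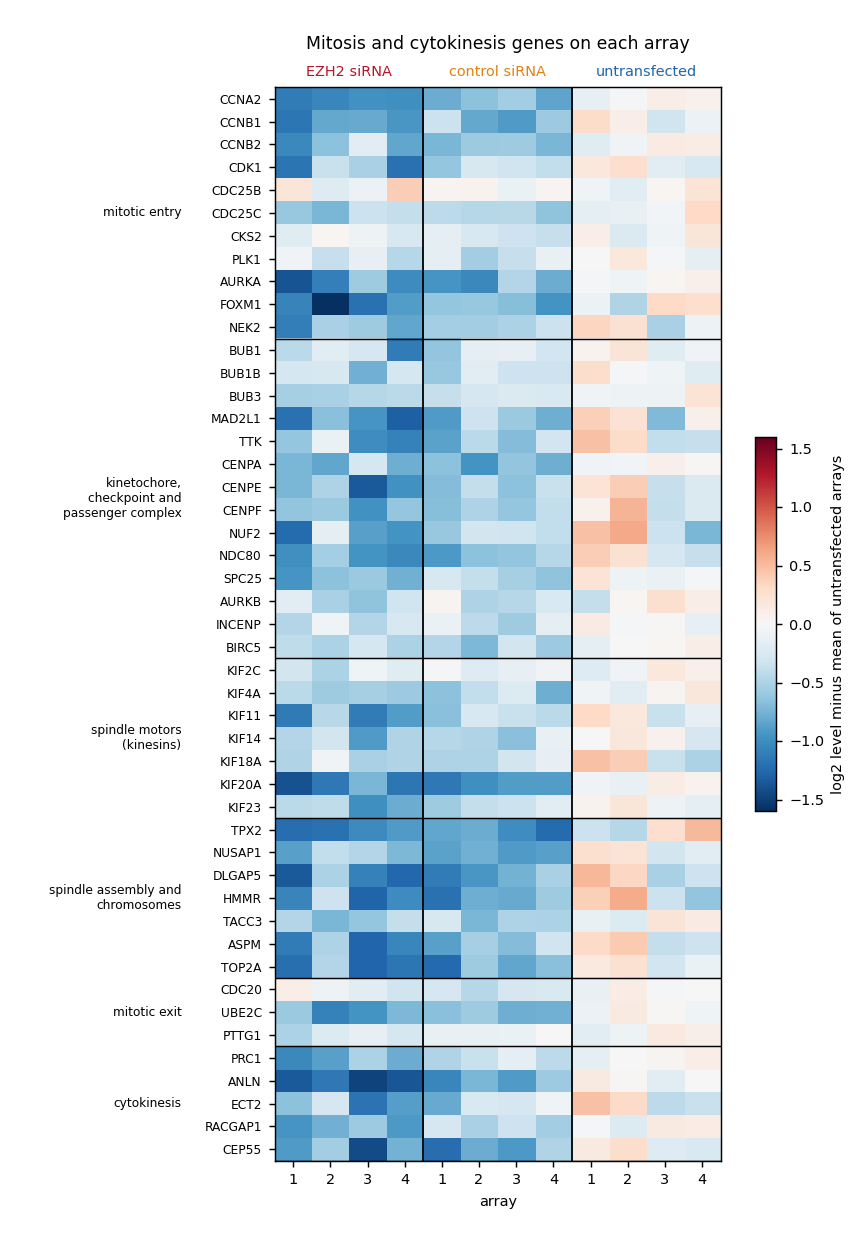
Log2 level of each of the 47 genes on each of the 12 arrays, minus the gene's mean on the 4 untransfected arrays, with genes ordered by step and blue for lower levels. Both siRNA groups are blue for most genes, CDC25B, CKS2 and CDC20 are near white throughout, and the untransfected arrays split into 1 and 2 against 3 and 4 for many genes.

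EZH2 siRNA and control siRNA cells were both transfected and differ in the target of the siRNA. Between them 2 of the 47 genes fell, near the share of all tested genes, and none of the 47 rose. The 2 that fell are listed here under cytokinesis. ANLN and PRC1 were lower in EZH2 siRNA cells at an adjusted p under 0.05 (limma), which is 2 of 47 genes (4.26%) beside 2.73% of all tested genes called lower. Called higher were 0 of 47, beside 2.02% of all tested genes. Both shares are of the order of the background. At an unadjusted p under 0.05 the counts were 8 lower (17.0%, beside 10.9% of all tested genes) and 0 higher (beside 9.19%). Most changes were small and downward: 40 of 47 fold changes lay below 0, beside 6116 of all 11273 tested genes. The median over the 47 genes was −0.16, beside −0.02 over all tested genes.

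Anillin links the contractile ring to the membrane at the cleavage furrow. ANLN read 9.16, 9.36, 9.02 and 9.14 in EZH2 siRNA cells, against 9.46, 9.77, 9.61 and 9.92 in control siRNA cells. Every EZH2 siRNA array lay below every control siRNA array, and the gene was 1.44-fold lower (log2 fold change −0.52, SE 0.12, adjusted p = 0.0198 in limma, exact permutation p = 0.0286, the smallest that 4 against 4 can give). PRC1 read 10.49, 10.65, 11.01 and 10.73 in EZH2 siRNA cells, against 11.04, 11.16, 11.36 and 11.10 in control siRNA cells. These groups were also fully apart, though by only 0.03 at the closest, and PRC1 was 1.36-fold lower (log2 fold change −0.45, SE 0.12, adjusted p = 0.0479 in limma). Both calls were close to the threshold. Neither passed under a 75th percentile scaling (adjusted p of up to 0.171 for ANLN and 0.328 for PRC1 over all alternatives tried), without EZH2 siRNA array 1 or 4, without control siRNA array 2 or 4, without the 3 dimmest arrays, with each array's own background removed (offset 16), or in a fit that includes brightness.

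The other genes listed under cytokinesis shared the sign, as did most genes of the other steps. RACGAP1, the GTPase-activating subunit of the centralspindlin complex, averaged 9.33 ± 0.17 in EZH2 siRNA cells and 9.71 ± 0.14 in control siRNA cells (SD, n = 4 each). Its arrays did not overlap, yet its log2 fold change of −0.39 missed the threshold (adjusted p = 0.0812 in limma). ECT2, the exchange factor that switches on RhoA at the furrow, differed by −0.40 and CEP55, which recruits the abscission machinery to the midbody, by −0.06, neither past the test. The median over the 5 genes listed under cytokinesis was −0.40. KIF20A, also needed for cytokinesis but listed with the motors, differed by −0.13 (adjusted p = 0.653 in limma). In the other steps no gene passed, and the medians were −0.20 for mitotic entry, −0.18 for kinetochore genes, −0.13 for motors, −0.12 for spindle assembly and −0.14 for mitotic exit.

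Among the genes that did not pass, FOXM1, the transcription factor of the G2 programme, had the largest difference in mitotic entry (−0.49, adjusted p = 0.123), and KIF11, the kinesin that pushes spindle poles apart, had the largest among the motors (−0.47, adjusted p = 0.12). CCNA2 (cyclin A2), BUB3 (a checkpoint protein) and PTTG1 (securin, the inhibitor of separase) were lower on every EZH2 siRNA array than on any control siRNA array without passing the test, at −0.32, −0.21 and −0.20. For PTTG1 the closest arrays read 11.58 and 11.59, and its other probe differed by 0.17 with overlapping arrays. In all, 6 of 47 genes were lower on every array (12.8%, beside 6.07% of all tested genes) and 0 higher on every array (beside 5.30%). Fold changes above 0 belonged to 7 genes, the highest of them NUSAP1 at 0.24 (adjusted p = 0.381).

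**Figure D3:**
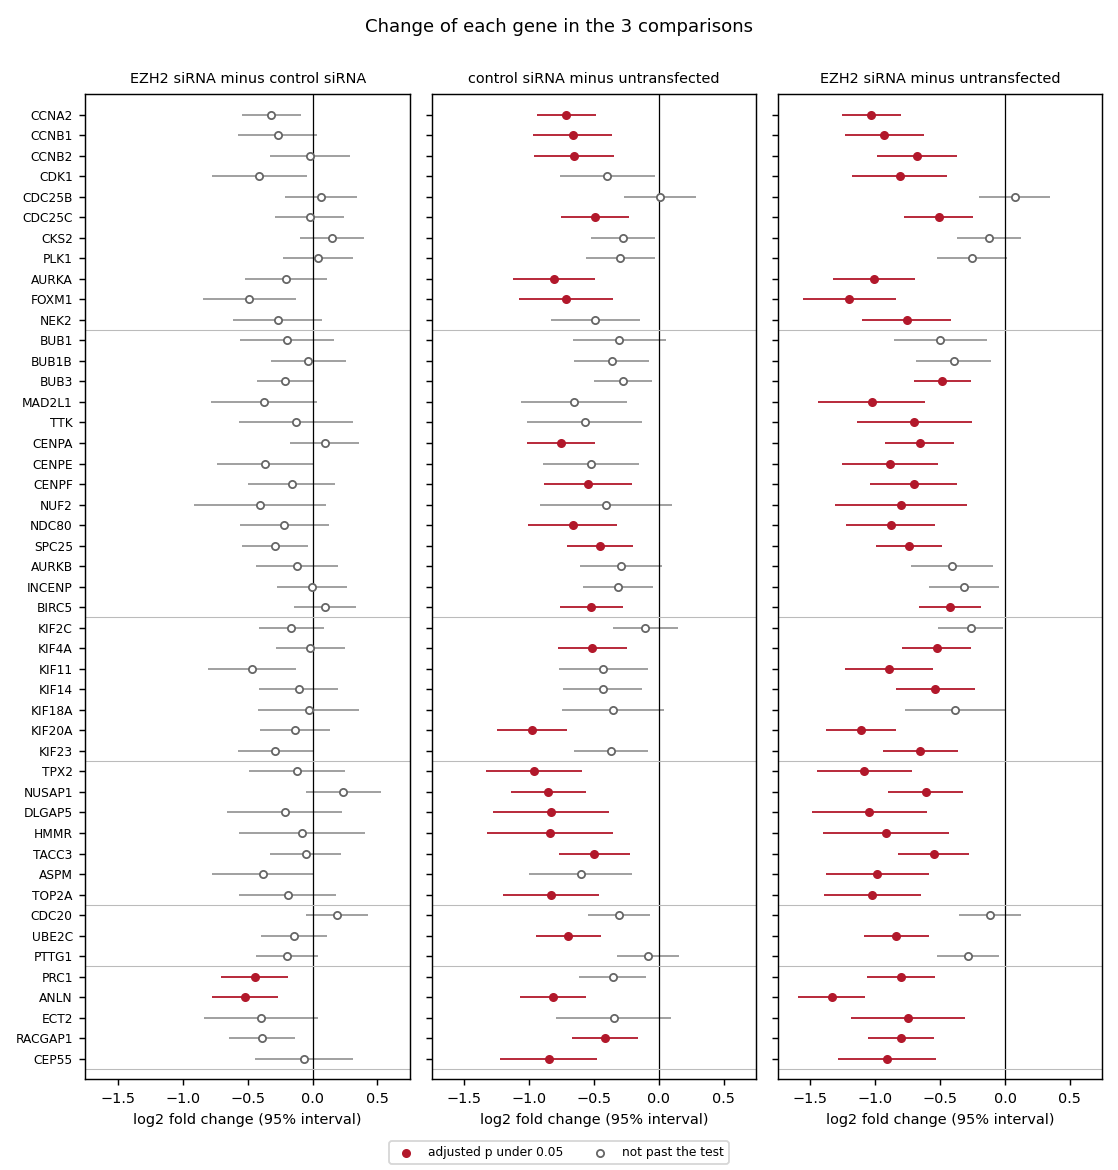
Log2 fold change of each gene with its 95% interval, for EZH2 siRNA minus control siRNA, control siRNA minus untransfected and EZH2 siRNA minus untransfected cells, filled where the adjusted p was under 0.05. Filled points number 2 in the first comparison, 23 in the second and 36 in the third, all left of 0.

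Cells given the scrambled siRNA already had lower levels of these RNAs than cells given none. In control siRNA cells, 23 of 47 genes were lower than in untransfected cells at an adjusted p under 0.05 (48.9%, beside 2.87% of all tested genes called lower), and 0 were higher (beside 4.75%; 0 also at an unadjusted p under 0.05). The median log2 fold change was −0.50, beside 0.02 over all tested genes. Of the 47 values, 46 lay below 0, beside 5266 of all 11273 tested genes. On 25 of 47 genes every control siRNA array was below every untransfected array (53.2%, beside 6.12% of all tested genes), and on 0 above (beside 9.39%). Without the 3 dimmest arrays, of which untransfected array 4 is the only one in these groups, the median was −0.52 with 19 genes called. Of all tested genes, 310 were called lower there, beside 323 with all arrays. The cause of the difference between these groups was not tested. The count depended on the scaling. A shift of each array by its 75th percentile over all probes left 1 call (TPX2, median over the 47 genes −0.38). A shift by that of the probes above background on all 12 arrays left 8 (median −0.56). Calls among all tested genes became fewer too, with 42 and 112 called lower under these shifts.

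In mitotic entry, 6 of 11 genes fell, with a median of −0.49: CCNA2, CCNB1, CCNB2, CDC25C, AURKA and FOXM1. AURKA, the centrosome kinase that starts spindle assembly, read 9.84, 9.74, 10.30 and 9.98 in control siRNA cells, against 10.74, 10.70, 10.81 and 10.85 in untransfected cells. The untransfected arrays lay within 0.15 of each other and above every control siRNA array, and AURKA was 1.75-fold lower (log2 fold change −0.81, SE 0.15, adjusted p = 0.00215 in limma). FOXM1 read 8.53, 8.54, 8.46 and 8.19 in control siRNA cells, against 9.05, 8.66, 9.46 and 9.41 in untransfected cells. The groups did not overlap, but the untransfected arrays were spread over 0.80, and the log2 fold change was −0.71 (SE 0.17, adjusted p = 0.0152 in limma). CCNA2 differed by nearly the same amount (−0.71) with less spread (SE 0.11, adjusted p = 0.000269). The genes that did not pass were CDK1 (−0.40), NEK2 (−0.49), PLK1 (−0.30), CKS2 (−0.28) and CDC25B (0.01), the last with overlapping arrays in all 3 groups.

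Of the 14 kinetochore, checkpoint and passenger genes, 5 fell (CENPA, CENPF, NDC80, SPC25 and BIRC5), with a median of −0.49. CENPA is the histone H3 variant that marks centromeres. It read 9.00, 8.69, 9.03 and 8.87 in control siRNA cells, against 9.60, 9.61, 9.73 and 9.67 in untransfected cells. All control siRNA arrays were lower, by a log2 fold change of −0.75 (SE 0.13, adjusted p = 0.000817 in limma). NDC80, the microtubule-binding subunit of the outer kinetochore, read 8.02, 8.28, 8.31 and 8.48 in control siRNA cells, against 9.33, 9.18, 8.66 and 8.56 in untransfected cells. Here untransfected arrays 1 and 2 stood well above 3 and 4, and the gap to the highest control siRNA array was 0.08 (log2 fold change −0.66, SE 0.16, adjusted p = 0.0185 in limma). SPC25, a partner of NDC80 in the same complex, differed by −0.45 (adjusted p = 0.0298), and BIRC5 (survivin), the passenger subunit that targets Aurora B to centromeres, by −0.52 (adjusted p = 0.00826).

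None of the 5 checkpoint genes passed. Their log2 fold changes were −0.30 for the kinase BUB1, −0.36 for BUB1B (BubR1), −0.28 for BUB3, −0.65 for MAD2L1 (MAD2) and −0.57 for the kinase TTK (MPS1). MAD2L1 came closest (adjusted p = 0.0533 in limma), and its untransfected arrays overlapped those of control siRNA cells. The remaining genes that did not pass were CENPE (−0.52), NUF2 (−0.40), AURKB (−0.29) and INCENP (−0.31).

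Of 7 motors, KIF20A and KIF4A fell, and the median was −0.43. KIF20A read 8.60, 8.76, 8.85 and 8.85 in control siRNA cells, against 9.69, 9.62, 9.86 and 9.79 in untransfected cells. The groups lay 0.77 apart at their closest, and KIF20A was 1.97-fold lower, the largest change of the 47 genes in this comparison (log2 fold change −0.98, SE 0.13, adjusted p = 5.85e-05 in limma). KIF4A, a chromosome-bound kinesin that limits the growth of midzone microtubules, read 7.81, 8.07, 8.24 and 7.69 in control siRNA cells, against 8.40, 8.30, 8.51 and 8.64 in untransfected cells. Its groups were separate by 0.06 only (log2 fold change −0.51, adjusted p = 0.0181 in limma). KIF11, KIF14, KIF23, KIF18A and KIF2C had log2 fold changes of −0.43, −0.43, −0.37, −0.35 and −0.10 and did not pass.

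Spindle assembly and chromosome genes had the highest share of calls among the steps, with 6 of 7 fallen and a median of −0.83. TPX2, the activator of Aurora A on spindle microtubules, read 9.38, 9.41, 9.21 and 8.98 in control siRNA cells, against 9.87, 9.75, 10.48 and 10.73 in untransfected cells. All control siRNA arrays were lower, and untransfected arrays 3 and 4 stood well above 1 and 2 (log2 fold change −0.96, SE 0.18, adjusted p = 0.00181 in limma). NUSAP1 read 9.69, 9.79, 9.64 and 9.68 in control siRNA cells, against 10.81, 10.77, 10.26 and 10.37 in untransfected cells. Control siRNA arrays lay within 0.15 of each other and below all untransfected arrays, which here were higher on 1 and 2 (log2 fold change −0.85, SE 0.14, adjusted p = 0.000571 in limma). DLGAP5 (HURP) and HMMR (RHAMM), both spindle microtubule proteins, passed at −0.83 and −0.84 (adjusted p = 0.0223 and 0.0363) although the arrays of both groups overlapped. TOP2A, the topoisomerase that untangles sister chromatids, fell by 0.83 and TACC3, a stabiliser of kinetochore fibres, by 0.50. ASPM, a spindle pole protein, missed the threshold (−0.60, adjusted p = 0.0662).

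In mitotic exit, 1 of 3 genes fell. UBE2C, the ubiquitin-conjugating enzyme of the anaphase-promoting complex, read 11.85, 11.95, 11.74 and 11.75 in control siRNA cells, against 12.43, 12.66, 12.54 and 12.45 in untransfected cells. The groups were 0.48 apart at their closest (log2 fold change −0.70, SE 0.12, adjusted p = 0.00105 in limma). CDC20, the activator of that complex, differed by −0.31 with no overlap between arrays (adjusted p = 0.127 in limma). PTTG1 differed by −0.09 on its brightest probe and by −0.45 on its other probe (adjusted p = 0.772 and 0.0554 in limma).

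In cytokinesis, 3 of 5 genes fell, with a median of −0.42. ANLN, given above for both siRNA groups, read 10.65, 10.53, 10.34 and 10.50 in untransfected cells, so that control siRNA cells were 1.76-fold lower (log2 fold change −0.82, SE 0.12, adjusted p = 0.000241 in limma). CEP55 read 8.80, 9.22, 9.09 and 9.54 in control siRNA cells, against 10.16, 10.30, 9.81 and 9.77 in untransfected cells. The 4 arrays spanned 0.74 in control siRNA cells and 0.53 in untransfected cells without overlapping (log2 fold change −0.85, SE 0.18, adjusted p = 0.0061 in limma). RACGAP1 fell by 0.42 (adjusted p = 0.0459). PRC1 (−0.36, adjusted p = 0.102) and ECT2 (−0.35) did not pass, and PRC1 read 11.36, 11.52, 11.57 and 11.63 in untransfected cells, which touches the highest control siRNA array.

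**Figure D4:**
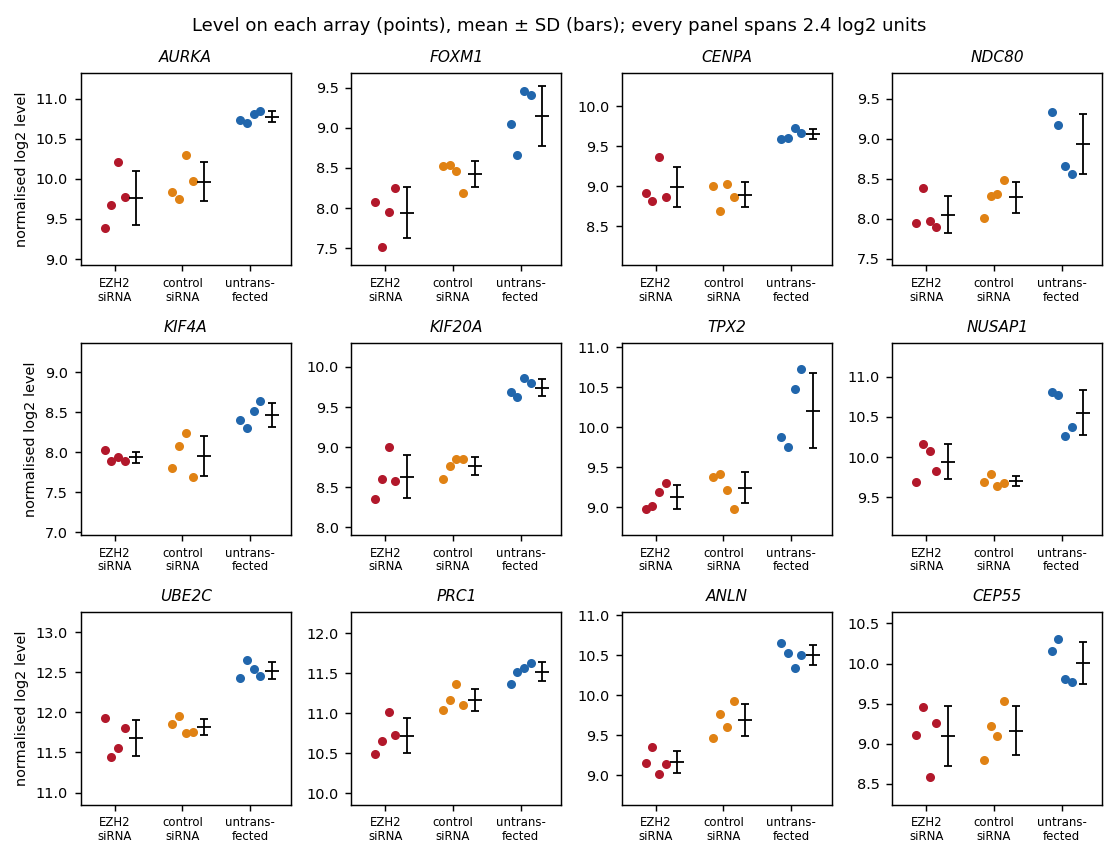
Normalised log2 level on each array (points) with mean ± SD (bars, n = 4) in EZH2 siRNA, control siRNA and untransfected cells, for the 12 genes given array by array. All panels span the same height. Untransfected arrays lie above all siRNA arrays in each but PRC1, where the highest control siRNA array reaches them. Apart from PRC1, these are the largest calls per step between control siRNA and untransfected cells, so this separation follows from their choice. Of all 47 genes, control siRNA arrays are fully below untransfected arrays in 25 and EZH2 siRNA arrays in 30. ANLN and PRC1, chosen by their calls between the siRNAs, separate the siRNA groups.

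EZH2 siRNA cells and untransfected cells differed in both the transfection and the siRNA, and this comparison shares arrays with the other comparisons. Called lower were 36 of 47 genes (76.6%, beside 8.29% of all tested genes), and 0 were called higher (beside 9.92%; 0 also at an unadjusted p under 0.05). The median log2 fold change was −0.74, beside 0.00 over all tested genes. On 30 of 47 genes every EZH2 siRNA array lay below every untransfected array (63.8%, beside 7.78% of all tested genes), and on 0 above (beside 9.93%). All 7 spindle assembly and all 5 cytokinesis genes were called, with medians of −0.98 and −0.80, as were 8 of 11 entry genes (−0.76), 10 of 14 kinetochore genes (−0.68), 5 of 7 motors (−0.54) and 1 of 3 exit genes (−0.28). The count fell to 23 without the 3 dimmest arrays, of which 2 are EZH2 siRNA arrays, and to 11 or 22 under the 75th percentile shifts named above. Calls among all tested genes became fewer too. Called lower were 351 without those arrays and 197 or 234 under the shifts, from 935 in the main fit.

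ANLN had the largest change, 2.53-fold lower (log2 fold change −1.34, SE 0.12, adjusted p = 3.59e-07 in limma), and the values given above leave 0.99 between its highest EZH2 siRNA array and its lowest untransfected array. FOXM1 read 8.07, 7.51, 7.94 and 8.24 in EZH2 siRNA cells, below every untransfected array (log2 fold change −1.20, adjusted p = 8.77e-05). KIF20A read 8.35, 8.60, 9.00 and 8.58 in EZH2 siRNA cells (log2 fold change −1.11, adjusted p = 8.69e-06). All 3 genes lay outside the untransfected range on every EZH2 siRNA array. TPX2 read 8.99, 9.02, 9.20 and 9.30 (−1.08) and AURKA 9.39, 9.68, 10.21 and 9.77 (−1.01) in EZH2 siRNA cells. AURKA was the more variable of this pair, with EZH2 siRNA array 3 well above the rest. UBE2C read 11.93, 11.44, 11.56 and 11.80 in EZH2 siRNA cells (−0.84), CEP55 9.11, 9.45, 8.58 and 9.25 (−0.91), and NDC80 7.95, 8.39, 7.97 and 7.91 (−0.88). None of these overlapped the untransfected arrays.

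For some genes the EZH2 siRNA arrays were not the lowest. CENPA read 8.92, 8.82, 9.37 and 8.87 in EZH2 siRNA cells and NUSAP1 9.69, 10.16, 10.08 and 9.83, and both means were above those of control siRNA cells, by 0.10 and 0.24, neither past the test. KIF4A, with 8.03, 7.89, 7.94 and 7.89 in EZH2 siRNA cells, differed from control siRNA cells by −0.02. Over the 47 genes, the mean was lowest in EZH2 siRNA cells and highest in untransfected cells for 40, and lowest in control siRNA cells for 6 (CKS2, PLK1, CENPA, BIRC5, NUSAP1 and CDC20). CDC25B was the remaining gene, with means of 11.70, 11.63 and 11.62 in EZH2 siRNA, control siRNA and untransfected cells. The share of all tested genes with each order of means was not counted. The 11 genes not called between EZH2 siRNA and untransfected cells were CDC25B, CKS2, PLK1, BUB1, BUB1B, AURKB, INCENP, KIF2C, KIF18A, CDC20 and PTTG1. A dimmer INCENP probe did pass there (−0.39, adjusted p = 0.0476 in limma), but was above background on none of the EZH2 siRNA arrays. NUF2, a partner of NDC80, was called there (−0.81, adjusted p = 0.0292) but was above background on only 2 of 4 EZH2 siRNA arrays.

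**Figure D5:**
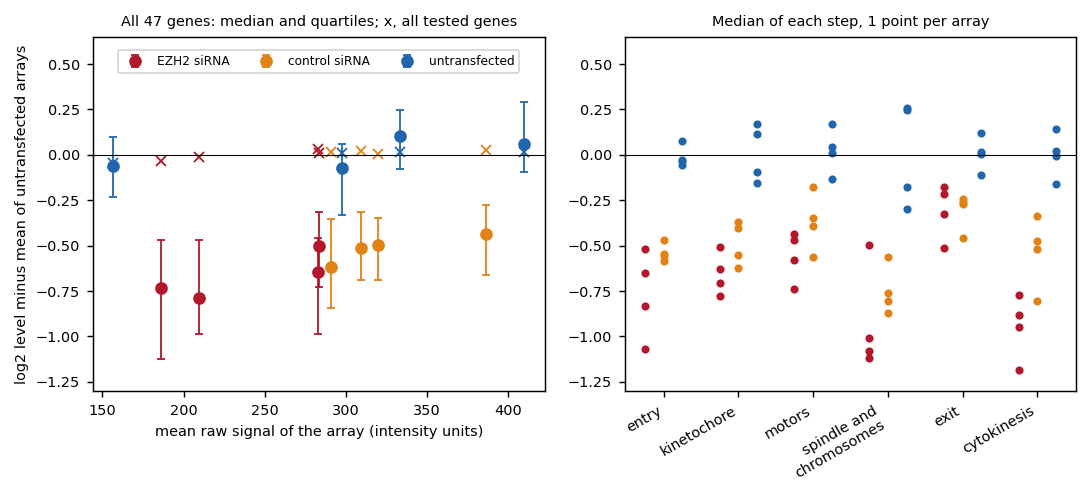
Left, median and quartiles over the 47 genes of the log2 level minus the mean of the untransfected arrays (circles and bars), and the median over all tested genes (crosses), against the array's mean raw signal in intensity units. Right, the median of each step on each array; EZH2 siRNA arrays lie between −1.18 and −0.18, control siRNA arrays between −0.87 and −0.17, and untransfected arrays between −0.30 and 0.26.

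Array by array, the median over the 47 genes relative to the untransfected mean was −0.73, −0.50, −0.64 and −0.79 in EZH2 siRNA cells, −0.62, −0.50, −0.51 and −0.44 in control siRNA cells, and 0.06, 0.11, −0.07 and −0.06 in untransfected cells. All 8 siRNA arrays were below all 4 untransfected arrays, and the dimmest array of all, untransfected array 4, was among the latter at −0.06. Within the EZH2 siRNA group, the lowest medians were on its dim arrays 1 and 4. The all-gene median stayed between −0.04 and 0.03.

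Inside each group, the 2 dimmer arrays were set beside the 2 brighter ones. In untransfected cells, 23 of 47 genes (48.9%, beside 28.4% of all tested genes) were lower on both dimmer arrays (3 and 4) than on arrays 1 and 2, among them NDC80, NUSAP1, HMMR, TOP2A and CEP55. Another 17 genes (36.2%, beside 22.0%) were higher on both, among them FOXM1, AURKA, TPX2 and KIF20A, so the split ran both ways. In EZH2 siRNA cells, 15 of 47 (31.9%, beside 24.8% of all tested genes) were lower and 5 (10.6%, beside 18.0%) higher on dimmer arrays 1 and 4. In control siRNA cells, 11 (23.4%, beside 14.6%) were lower and 5 (10.6%, beside 15.3%) higher on arrays 1 and 3. When the brightness of each array was added to the fit, both calls between the siRNAs (ANLN and PRC1) were lost and 1 other gene, FOXM1, was called lower instead. In the same fit 32 genes were called lower between control siRNA and untransfected cells and 37 between EZH2 siRNA and untransfected cells. Calls among all tested genes rose as well, to 436 and 1047 lower from 323 and 935 without brightness.

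Several genes had more than 1 probe. The 47 genes had 73 probes, of which 70 were tested, and 20 genes had at least 2 tested probes. Between control siRNA and untransfected cells all probes of a gene had the same sign in 20 of 20 genes, with every probe called in 6, some in 3 and none in 11. Between EZH2 and control siRNA cells the sign was shared in 16 of 20. The exceptions were SPC25, BUB3, PTTG1 and CDC25C, in which another probe lay above 0. The same shares over all tested genes with several probes were not counted, so these counts describe the probes only.

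A further 91 genes of the same pathway were listed by function, and 87 could be tested. Between EZH2 and control siRNA cells 3 of them fell (3.45%, beside 2.73% of all tested genes) and 2 rose (2.30%, beside 2.02%), shares near the background, with a median of −0.10. FAM83D, which brings casein kinase to the spindle, read 8.91, 8.83, 8.95 and 8.78 in EZH2 siRNA cells, against 9.73, 9.51, 9.56 and 9.36 in control siRNA cells and 10.28, 10.15, 10.32 and 10.34 in untransfected cells. Its groups stood apart at every step (log2 fold change −0.68 between the siRNAs, adjusted p = 0.00126 in limma, −0.73 between control siRNA and untransfected cells, adjusted p = 0.000228, and −1.41 between EZH2 siRNA and untransfected cells, adjusted p = 3.24e-08). The spindle gene TROAP (−0.49, adjusted p = 0.019) and the centromere gene CENPQ (−0.58, adjusted p = 0.0381) also fell between the siRNAs. The genes that rose were ZW10 and ENSA. ZW10, a checkpoint protein that brings dynein to kinetochores, read 8.96, 9.21, 9.37 and 9.14 in EZH2 siRNA cells, against 8.25, 7.96, 8.49 and 8.34 in control siRNA cells and 9.08, 9.48, 8.92 and 9.17 in untransfected cells. Only the control siRNA arrays were low: ZW10 differed by 0.91 between the siRNAs (adjusted p = 0.000726 in limma), by −0.90 between control siRNA and untransfected cells (adjusted p = 0.000334), and by 0.01 between EZH2 siRNA and untransfected cells. ENSA, an inhibitor of the phosphatase PP2A-B55 during mitosis, was higher by 0.83 with EZH2 siRNA than with control siRNA (adjusted p = 0.00286).

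Between control siRNA and untransfected cells 18 of these 87 genes fell (20.7%, beside 2.87% of all tested genes) and 0 rose (beside 4.75%; limma, 1 higher at an unadjusted p under 0.05), with a median of −0.25. Those with the largest changes in each subgroup were BORA, a cofactor of Aurora A (−0.65), FBXO5 (EMI1), an inhibitor of the anaphase-promoting complex (−0.73), the condensin subunit NCAPD2 (−0.71), the cohesin protector SGO2 (−0.69), the centromere genes ZW10 (−0.90) and CENPI (−0.76), and FAM83D (−0.73) with the proliferation marker MKI67 (−0.65). By subgroup, 6 of 13 spindle and cytokinesis genes fell, 8 of 30 kinetochore genes, 2 of 15 condensin and cohesin genes, and 1 each of 15 entry regulators and 14 genes of the anaphase-promoting complex. Between EZH2 siRNA and untransfected cells 31 fell (35.6%, beside 8.29% of all tested genes) and 4 rose (4.60%, beside 9.92%), with a median of −0.32. Taking at most 2 calls per subgroup by size, those that fell were FAM83D, FBXO5 (−1.02), SMC4 and NCAPD2 (both condensin, −0.93 each), BORA (−0.87), CENPK (−0.86), TROAP (−0.84), CENPI (−0.79) and GTSE1 (−0.48). The 4 that rose, named after their values were seen, were the checkpoint gene MAD1L1 (0.76, adjusted p = 0.00179), ENSA (0.47), ANAPC11, a subunit of the anaphase-promoting complex (0.45), and FZR1 (CDH1), its activator in late mitosis and G1 (0.37).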

How the data were processed

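The raw table deposited by the authors holds 1 intensity per probe and array for 48803 probes, exported with BeadStudio 3.2 per the submitters' processing notes. A second deposited table holds log2 values, which equal the quantile-normalised log2 of the raw table to within 0.0001. No genome alignment is involved. Background was removed from the intensities by normexp with an offset of 50, followed by quantile normalisation (limma 3.58.1, R 4.3.3). The offset shrinks fold changes of dim probes. No detection p-values came with the table, so a probe was tested if above each array's background mode, with the spread below it mirrored, at p under 0.01 on at least 4 of 12 arrays; 18126 probes passed. The brightest tested probe stood for a gene; 28098 probes had 1 symbol, 13 several and 20692 none. All arrays were fitted in 1 model of 3 groups (lmFit, eBayes), with Benjamini-Hochberg adjustment over all tested probes, and tested on simulated data. Exact permutation tests were two-sided. The genes, pathway lists and motifs were chosen with earlier results of these data known. Values on every array are given, by a rule, for genes called between the siRNAs and the 2 largest calls per step between control siRNA and untransfected cells; CCNA2 and genes named without calls were chosen after their values were seen. With the group mean of each probe subtracted, correlations of same-numbered arrays of different groups ran from −0.375 to 0.456. In no comparison were all 4 over 0.1 (3, 0 and 2 were), so numbers were not used as pairs. Figures used matplotlib 3.10.9.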

Additional observations from a re-analysis of the deposited data

Results flagged for a closer look

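Each of the 47 genes was examined in each group of 4 arrays for 1 array standing far from the other 3, which gave 141 gene and group combinations; 10 stood out, and chance alone picks out about 1 in 20. All values are normalised log2 levels. In EZH2 siRNA cells, array 3 was low for BUB1B (7.28, others 7.77 to 7.80) and CENPF (8.01, others 8.34 to 8.39). Array 2 of the same group was high for NDC80 (8.39, others 7.91 to 7.97), KIF18A (7.42, others 6.96 to 7.001) and TOP2A (10.85, others 10.04 to 10.16). In control siRNA cells, array 3 was low for CDC25B (11.51, others 11.66 to 11.68), array 2 low for CDC20 (11.76, others 11.94 to 11.97), and array 4 low for CDC25C (7.24, others 7.43 to 7.46) and high for PTTG1 (11.70, others 11.59 to 11.60). In untransfected cells, array 4, the dimmest of all, was high for BUB3 (12.17, others 11.87 to 11.90).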

How the results depend on the processing

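Members called lower numbered 2 with EZH2 against control siRNA, 23 with control siRNA against untransfected cells and 36 with EZH2 siRNA against untransfected cells, and 0 were called higher in any comparison under any alternative. A 75th percentile shift gave 0, 1 and 11 calls and medians of −0.47, −0.38 and −0.86; it moved the median of all genes by −0.13, 0.07 and −0.03, to −0.15, 0.08 and −0.03, and the all-gene calls to 97 lower and 7 higher, 42 and 198, and 197 and 129, from 308 and 228, 323 and 536, and 935 and 1118. The same shift over probes above background on all 12 arrays gave 0, 8 and 22 calls, with all-gene medians of 0.19, −0.10 and 0.12. Of all tested genes, 39, 112 and 234 were called lower there. Removing each array's own background (offset 16) gave 0, 15 and 34, beside 193, 200 and 754 of all tested genes called lower. For EZH2 against control siRNA, the deposited log2 table and no filter kept 1 call (ANLN). Brightness as a covariate lost both calls and gave 1 other (FOXM1). Leaving out the 3 dimmest arrays gave 0 (23 for EZH2 siRNA against untransfected cells), beside 80 (351) of all tested genes called lower. Leaving out each array gave 0 to 3 calls for EZH2 against control siRNA, 16 to 25 for control siRNA against untransfected cells and 33 to 39 for EZH2 siRNA against untransfected cells. The replicate block gave 2, 26 and 37, beside 320, 305 and 951 of all tested genes called lower. With group means subtracted, same-numbered arrays correlated best with each other in 2, 0 and 2 of 4 cases. Cyclic loess, the stricter filter and the mean over probes kept all 3 counts within 1.5 times. The cause of these shifts was not tested. Between control siRNA and untransfected cells, TPX2 was called under 23 of 23 alternatives, RACGAP1 under 10 and CENPF under 9; ANLN was called between the siRNAs under 14 and PRC1 under 7. Signal over background limits NUF2 most.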
